A study of Homo sapiens with 6 samples.

Results

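The genes described here encode 10 proteins that place, remove or read N6-methyladenosine (m6A), a methyl mark on adenosines inside messenger RNA. They were chosen by name: the writer subunits METTL3, METTL14, WTAP, VIRMA and RBM15, the erasers FTO and ALKBH5, and the readers YTHDF1, YTHDF2 and YTHDC1. All 10 symbols matched 1 of the 57500 Ensembl gene identifiers in the deposited table each, and all 10 passed the filter on low values that left 15341 genes for testing. PolyA-selected RNA of HEK293T, a long-established line grown out of human embryonic kidney, was sequenced in 2 groups of 3 libraries. The PRMT1 overexpression libraries (genotype label PRMT1 OV) come from cells transfected by means of PolyJet with a pcDNA3 plasmid that carries PRMT1. The control libraries, called vector control here as a group name only, are titled mock and have the genotype label WT. The labels describe transfection for the PRMT1 condition, and whether control cells received an empty plasmid is not given in the sources used here, nor is the time between transfection and harvest. Both groups share the same line and culture medium. No label states that the 3 libraries of a condition were grown as separate cultures. The p-values therefore rest on library-to-library spread, part or all of which may be technical.

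m6A is written in the nucleus while messages are being made. METTL3 holds the methyltransferase activity, METTL14 binds the RNA and keeps METTL3 active, and WTAP, VIRMA, ZC3H13, CBLL1 and RBM15 or its paralog RBM15B form the part of the complex that anchors and recruits this pair. FTO and ALKBH5 are dioxygenases that take the methyl group off again. Proteins with a YTH domain bind the mark: YTHDC1 in the nucleus, where it acts on splicing and export, and the YTHDF proteins in the cytoplasm, where they act on the translation and decay of messages. PRMT1 methylates arginines in proteins, mostly to the asymmetric dimethyl form, and the METTL14 and RBM15 proteins are known substrates of it. The comparison below concerns the messages of these genes, not the marks on their proteins or on RNA.

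The values are TPM, transcript levels per length that add up to 1000000 in each library. They trace back to 18196910 to 23163971 counted reads in a library. PRMT1 itself was at 71656, 62895 and 84923 TPM in the PRMT1 libraries, against 378, 397 and 368 TPM in the controls, so every library matched its label. All 5 markers fixed for the HEK293 line (PAX2, LHX1, NEFM, NEFL and VIM) were at 1 TPM or more in every library, with a summed level of 884 to 1041 TPM in the PRMT1 libraries and 1378 to 1481 TPM in the controls. Of the 4 kidney tubule markers only LRP2 reached 1 TPM in every library, and the list summed to 3.37 to 4.09 TPM in the PRMT1 libraries and 2.11 to 4.27 TPM in the controls. The 3 endothelial and the 3 immune markers summed to at most 0.432 TPM in the PRMT1 libraries and 0.470 TPM in the controls. Of the 4 fibroblast markers only COL1A1 reached 1 TPM in every library. That list summed to 9.34 to 10.8 TPM in the PRMT1 libraries and 12.3 to 17.1 TPM in the controls. The 2 muscle markers, MYH7 and ACTA1, both reached 1 TPM in every library. They summed to 12.2 to 16.7 TPM in the PRMT1 libraries and 15.4 to 18.6 TPM in the controls. The part of these shifts in the results below was not tested. Fold changes below are PRMT1 over control on log2(TPM + 1), tested with limma over all 15341 genes, and a gene is said to have risen or fallen where the Benjamini-Hochberg adjusted p was under 0.05. On this scale the median of all tested genes was 0.30, so a gene with no change relative to the others lay near 0.30 rather than 0. Median-of-ratios scaling, which brings the bulk of genes in each library to a common level, moved this median by -0.32, to -0.01, and both values are given where they differ in outcome. In these bulk samples, fewer cells that express a gene and less of its RNA per cell cannot be told apart.

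Of the 10 m6A genes, 6 rose and 1 fell in the PRMT1 libraries. Of all tested genes 40.3% rose and 8.64% fell, 49.0% in either direction. The rising genes were METTL3, METTL14, WTAP, VIRMA, YTHDF1 and YTHDC1, and the falling gene was ALKBH5. After median-of-ratios scaling 4 of the 10 were higher past the threshold, METTL14, VIRMA, YTHDF1 and YTHDC1, where 22.5% of all genes were, and ALKBH5 was again the 1 lower gene, where 25.5% of all genes were lower (48.0% in either direction). The median log2 fold change of the 10 genes was 0.52, beside 0.30 for all tested genes. With 10 genes, these shares differ from those of all genes by a few genes, so the list as a whole is described by its single members.

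**Figure D1:**
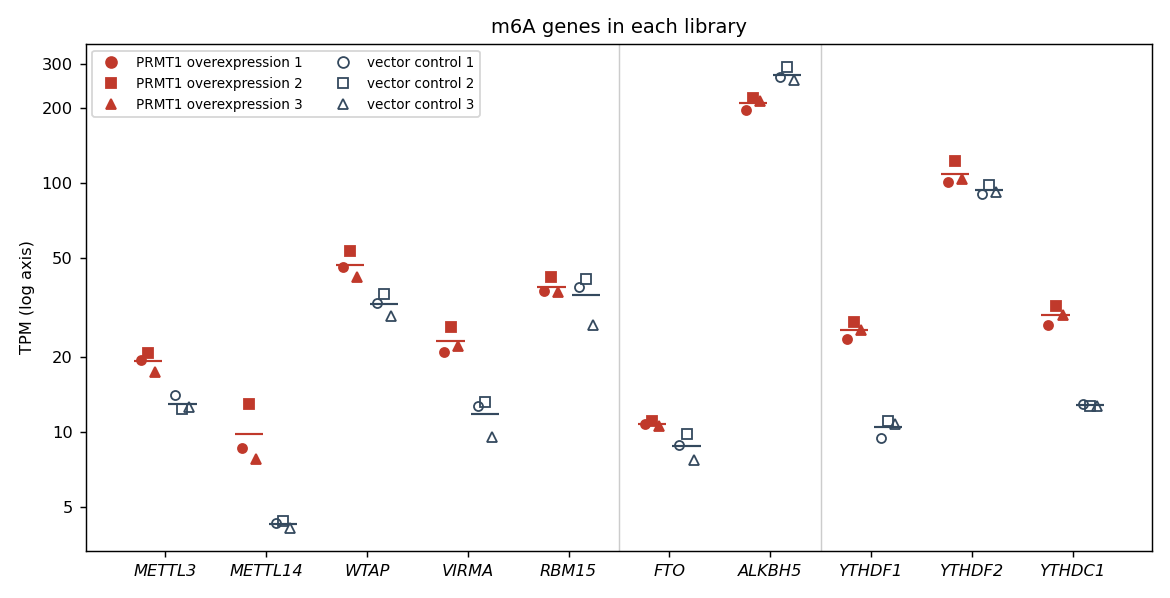
TPM of the 10 m6A genes in each library (log axis), with writers on the left, erasers in the middle and readers on the right. Filled red symbols are PRMT1 overexpression libraries, open dark symbols vector control libraries, symbol shape gives the replicate number and bars are group means of 3. YTHDF1, YTHDC1, VIRMA, METTL14, METTL3, WTAP, FTO and YTHDF2 lie entirely higher in the PRMT1 libraries, RBM15 overlaps, and ALKBH5 lies entirely lower.

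METTL3 and METTL14, the partners of the catalytic pair, both rose. METTL14 (ENSG00000145388, chromosome 4, 118685368 to 118715433, plus strand; here and below GRCh38 positions of GENCODE 29) was at 8.65, 13.0 and 7.79 TPM in the PRMT1 libraries 1 to 3, against 4.33, 4.40 and 4.13 TPM in the control libraries 1 to 3. All PRMT1 values lay above all control values, and PRMT1 library 2 was the highest. The mean was 9.80 ± 2.77 TPM in the PRMT1 libraries and 4.29 ± 0.14 TPM in the controls (SD, n = 3 each). Its log2 fold change was 1.00 (95% confidence interval 0.59 to 1.41, limma adjusted p = 0.00309), and 0.67 after scaling (adjusted p = 0.00569). Between 305 and 573 reads per PRMT1 library and 166 to 186 per control library stood behind these values.

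METTL3 (ENSG00000165819, chromosome 14, 21498133 to 21511375, minus strand) was at 19.5, 20.8 and 17.5 TPM in the PRMT1 libraries, against 14.1, 12.4 and 12.6 TPM in the controls. The groups did not overlap, and the lowest PRMT1 value lay close above the highest control value. The log2 fold change was 0.53 (95% confidence interval 0.29 to 0.77, limma adjusted p = 0.00446), an interval that holds the median of all genes. After scaling it was 0.17 and did not pass (adjusted p = 0.15). METTL3 shares 388 of its 5894 exonic bases with TOX4 on the opposite strand, and TOX4, which encodes a chromatin-associated protein, rose by 0.45 (adjusted p = 0.0236). The strand setting of the read counting is not given in the sources used here, and the part of TOX4 reads in the METTL3 value was not tested.

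The scaffold and the adaptor of the writer complex rose as well. VIRMA, the scaffold on which the other subunits assemble (ENSG00000164944, chromosome 8, 94487693 to 94553529, minus strand), was at 20.9, 26.4 and 22.1 TPM in the PRMT1 libraries, against 12.7, 13.2 and 9.60 TPM in the controls. Every PRMT1 library lay clearly above every control library. Its log2 fold change was 0.91 (95% confidence interval 0.58 to 1.25, limma adjusted p = 0.00184), and 0.56 after scaling (adjusted p = 0.0032). WTAP, which ties the catalytic pair to the other subunits and to nuclear speckles (ENSG00000146457, chromosome 6, 159725585 to 159756319, plus strand), was at 45.8, 53.1 and 42.1 TPM in the PRMT1 libraries, against 32.8, 35.9 and 29.3 TPM in the controls. The groups did not overlap as deposited. The log2 fold change of WTAP was 0.51 (limma adjusted p = 0.00819), but 0.14 after scaling, where the groups overlapped and the gene did not pass (adjusted p = 0.179). WTAP shares 298 exonic bases with SOD2 on the opposite strand, and SOD2 was at -0.20 on the log2 scale and did not pass (adjusted p = 0.197).

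RBM15, the RNA-binding subunit that directs the complex to part of its targets and is itself a PRMT1 substrate as a protein, did not pass in either direction. RBM15 (ENSG00000162775, chromosome 1, 110338506 to 110346681, plus strand) was at 36.8, 41.8 and 36.5 TPM in the PRMT1 libraries, against 38.3, 41.2 and 26.9 TPM in the controls. The groups overlapped, and control library 3 was the lowest of all. The log2 fold change was 0.13 (95% confidence interval -0.23 to 0.49, limma adjusted p = 0.519), which was -0.05 without control library 3 and -0.24 after scaling (adjusted p = 0.124). The interval reaches from a fall to a rise, so no direction was resolved. Its antisense gene RBM15-AS1, which shares 175 exonic bases with it, held 0.95 to 2.23 TPM in the PRMT1 libraries and 0.84 to 2.02 TPM in the controls (log2 fold change 0.26, adjusted p = 0.449).

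Of the erasers, ALKBH5 fell and FTO did not pass. ALKBH5, the nuclear m6A demethylase (ENSG00000091542, chromosome 17, 18183078 to 18209954, plus strand), was at 196, 219.9 and 213 TPM in the PRMT1 libraries, against 266, 292 and 258 TPM in the controls. All PRMT1 values lay below all control values. Its mean was 209 ± 12.4 TPM in the PRMT1 libraries and 272 ± 17.8 TPM in the controls (SD, n = 3 each). The log2 fold change was -0.37 (95% confidence interval -0.55 to -0.20, limma adjusted p = 0.00538), and 7.72% of all tested genes had a lower one. After scaling it was -0.75 (adjusted p = 0.000374), and over all 18 alternative settings it lay between -0.75 and -0.27, always past the threshold. An antisense gene that shares 357 exonic bases with ALKBH5 held at most 0.154 TPM in any library. FTO, a demethylase of m6A and of the related cap mark m6Am (ENSG00000140718, chromosome 16, 53701692 to 54158512, plus strand), was at 10.7, 11.1 and 10.6 TPM in the PRMT1 libraries, against 8.88, 9.81 and 7.69 TPM in the controls. The groups did not overlap, but the log2 fold change of 0.28 did not pass (95% confidence interval 0.01 to 0.54, limma adjusted p = 0.0757). It lay close to the median of all genes and was -0.07 after scaling (adjusted p = 0.551). RPGRIP1L, which overlaps FTO on the opposite strand but shares 0 exonic bases with it, rose by 0.62 (adjusted p = 0.0146).

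The largest rises among the 10 genes were those of the readers YTHDF1 and YTHDC1. YTHDF1, a cytoplasmic reader linked to translation (ENSG00000149658, chromosome 20, 63195429 to 63216234, minus strand), was at 23.7, 27.6 and 25.7 TPM in the PRMT1 libraries, against 9.48, 11.1 and 10.8 TPM in the controls. The lowest PRMT1 value lay far above the highest control value, and the means were 25.7 ± 1.95 TPM in the PRMT1 libraries and 10.5 ± 0.85 TPM in the controls (SD, n = 3 each), a 2.46-fold difference. The log2 fold change was 1.22 (95% confidence interval 0.98 to 1.46, limma adjusted p = 0.000175), higher than that of 94.9% of all tested genes, and 0.86 after scaling (adjusted p = 0.000627).

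YTHDC1, the nuclear reader (ENSG00000083896, chromosome 4, 68310387 to 68350089, minus strand), was at 26.9, 32.2 and 29.6 TPM in the PRMT1 libraries, against 13.0, 12.7 and 12.7 TPM in the controls. The means were 29.6 ± 2.65 TPM in the PRMT1 libraries and 12.8 ± 0.13 TPM in the controls (SD, n = 3 each), and the controls were nearly alike. The log2 fold change of YTHDC1 was 1.14 (95% confidence interval 0.92 to 1.36, limma adjusted p = 0.000166), and 0.78 after scaling (adjusted p = 0.000476).

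YTHDF2, the reader that recruits deadenylases and speeds the decay of marked messages (ENSG00000198492, chromosome 1, 28736621 to 28769775, plus strand), did not share these rises. It was at 101, 122 and 103 TPM in the PRMT1 libraries, against 90.5, 98.0 and 91.7 TPM in the controls. The groups did not overlap, but the log2 fold change of 0.21 did not pass (95% confidence interval 0.00 to 0.42, limma adjusted p = 0.0864). After scaling it was -0.16 (adjusted p = 0.106), and the groups then did not overlap in the other direction. YTHDF1, YTHDF2 and YTHDF3 are paralogs, and whether reads were split between them in the counting was not tested.

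**Figure D2:**
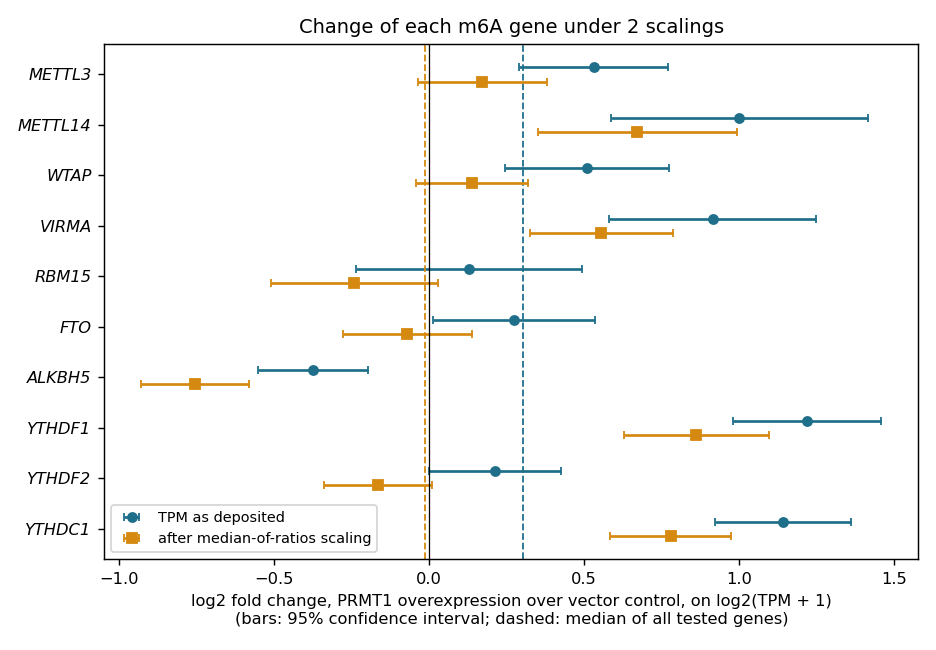
Log2 fold change of each m6A gene, PRMT1 overexpression over vector control, with 95% confidence intervals from limma (n = 3 each). Round symbols are TPM as deposited, square symbols values after median-of-ratios scaling, and dashed lines the median of all tested genes on each scale (0.30 and -0.01). METTL3, METTL14, WTAP, VIRMA, YTHDF1 and YTHDC1 lie above the median and RBM15, FTO, ALKBH5 and YTHDF2 below it on both scales. The intervals of METTL14, VIRMA, YTHDF1, YTHDC1 and ALKBH5 exclude the median on both.

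As deposited, the values of the PRMT1 libraries lay entirely above the controls for 8 of the 10 genes, which was so for 49.8% of all tested genes, and entirely below them for ALKBH5 alone, which was so for 11.6%. After scaling 5 genes lay entirely above, beside 28.6% of all genes, and 2, ALKBH5 and YTHDF2, entirely below, beside 30.4%. METTL14, VIRMA, YTHDF1, YTHDC1 and ALKBH5 kept direction and call under all 18 alternative settings. METTL3 lost its call after median-of-ratios scaling, quantile normalization and GC correction (adjusted p = 0.15 to 0.221), and WTAP after median-of-ratios scaling and GC correction (adjusted p = 0.179 and 0.141). FTO and YTHDF2 passed upward when TPM were rescaled without PRMT1 (adjusted p = 0.0224 and 0.0159) and with array weights (adjusted p = 0.0085 and 0.0234).

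The order of the levels, which compares genes per length of their annotated exons, was led by ALKBH5 and YTHDF2 in both groups. In the PRMT1 libraries the order went on with WTAP (47.0 TPM), RBM15 (38.4), YTHDC1 (29.6), YTHDF1 (25.7), VIRMA (23.1), METTL3 (19.3), FTO (10.8) and METTL14 (9.80). In that order YTHDC1 and YTHDF1, YTHDF1 and VIRMA, and FTO and METTL14 overlapped in their single values. In the controls the order after YTHDF2 was RBM15 (35.5 TPM), WTAP (32.7), METTL3 (13.0), YTHDC1 (12.8), VIRMA (11.8), YTHDF1 (10.5), FTO (8.80) and METTL14 (4.29), where RBM15 and WTAP overlapped, as did each neighbouring pair between METTL3 and FTO. FTO and METTL14 were separate there. The 5 writer genes summed to 138 ± 15.4 TPM in the PRMT1 libraries and 97.3 ± 13.0 TPM in the controls, the 3 readers to 164 ± 16.2 TPM in the PRMT1 libraries and 117 ± 4.58 TPM in the controls, and the 2 erasers to 220.2 ± 12.5 TPM in the PRMT1 libraries and 281 ± 18.8 TPM in the controls (SD, n = 3 each). The eraser sum is mostly ALKBH5 and the reader sum mostly YTHDF2.

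**Figure D3:**
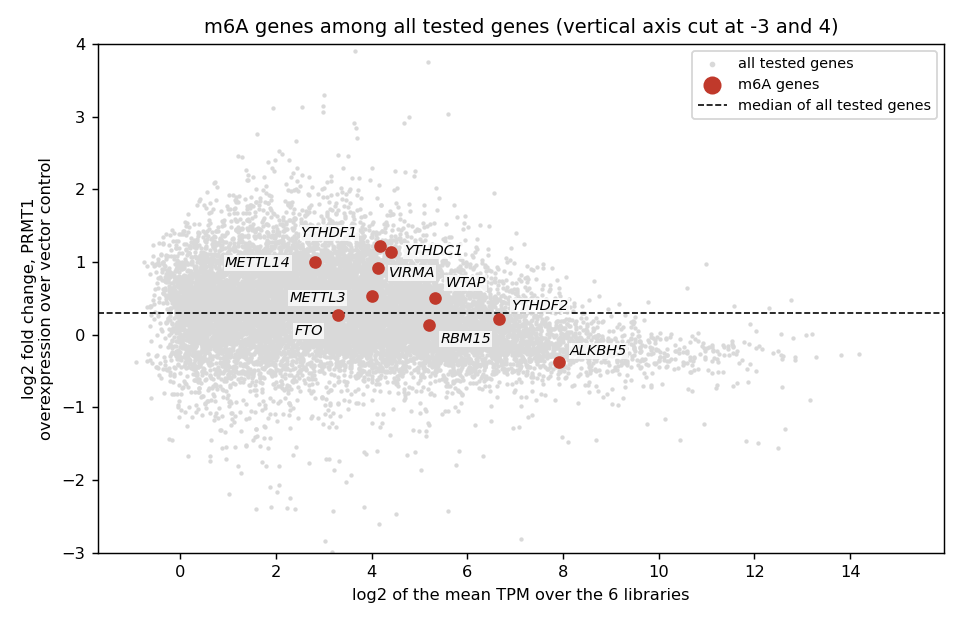
Log2 fold change (vertical axis) against log2 of the mean TPM over the 6 libraries (horizontal axis) for all tested genes (grey) and the 10 m6A genes (red), with the median of all tested genes as a dashed line at 0.30 and the vertical axis cut at both ends. The 6 genes that rose lie above the line at low and middle levels. ALKBH5, the most abundant of the 10, lies below it, as do RBM15, FTO and YTHDF2.

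Members with lower levels and lower GC content tended to have larger rises. Across the 10 genes the Spearman correlation of the log2 fold change was -0.55 with the mean level and -0.65 with the GC content of the longest transcript, which ran from 38.4% in METTL14 to 54.9% in ALKBH5. Across all tested genes it was -0.25 with the level (15341 genes) and -0.24 with GC content (15276 genes). Over the 36 members and other pathway genes described below, it was -0.78 with the level and -0.16 with GC content. These are descriptions over genes measured in the same 6 libraries, and genes are not replicates. YTHDF1 combined a GC content of 51.9% with the largest rise of the 10. After a GC correction per library, YTHDF1 was at 0.91, YTHDC1 at 0.68, METTL14 at 0.51, VIRMA at 0.46 and ALKBH5 at -0.64, each past the threshold (limma adjusted p at most 0.00596).

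Ratios between partner genes within a library do not depend on a single scaling factor per library. They can change under quantile normalization or GC correction, which treat genes of a library differently. For 5 pairs the difference in the log2 ratio was tested with an exact two-sided permutation test, whose smallest possible p for 3 against 3 libraries is 0.1. METTL14 stood at 0.443, 0.623 and 0.446 of METTL3 in the PRMT1 libraries, against 0.308, 0.355 and 0.328 in the controls. Every PRMT1 library had more METTL14 per METTL3, a log2 difference of 0.59 (exact permutation p = 0.1, 0.125 adjusted over the 5 pairs). WTAP per METTL3 was 2.34, 2.55 and 2.41 in the PRMT1 libraries, against 2.34, 2.89 and 2.33 in the controls, a log2 difference of -0.04 that lay within the spread (exact permutation p = 1).

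RBM15 per RBM15B, its paralog, was 0.945, 1.02 and 0.874 in the PRMT1 libraries, against 1.31, 1.39 and 1.11 in the controls. The PRMT1 libraries were all lower, by 0.43 on the log2 scale (exact permutation p = 0.1, adjusted 0.125). ALKBH5 per FTO was 18.2, 19.8 and 20.1 in the PRMT1 libraries, against 30.0, 29.7 and 33.5 in the controls, a log2 difference of -0.68 (exact permutation p = 0.1, adjusted 0.125). Under quantile normalization this difference was -0.10 and the groups were no longer fully apart (exact permutation p = 0.2). YTHDF2 per YTHDF1 was 4.24, 4.43 and 4.02 in the PRMT1 libraries, against 9.54, 8.84 and 8.48 in the controls. This was the largest of the 5 differences, -1.08 on the log2 scale, with no overlap (exact permutation p = 0.1, adjusted 0.125).

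**Figure D4:**
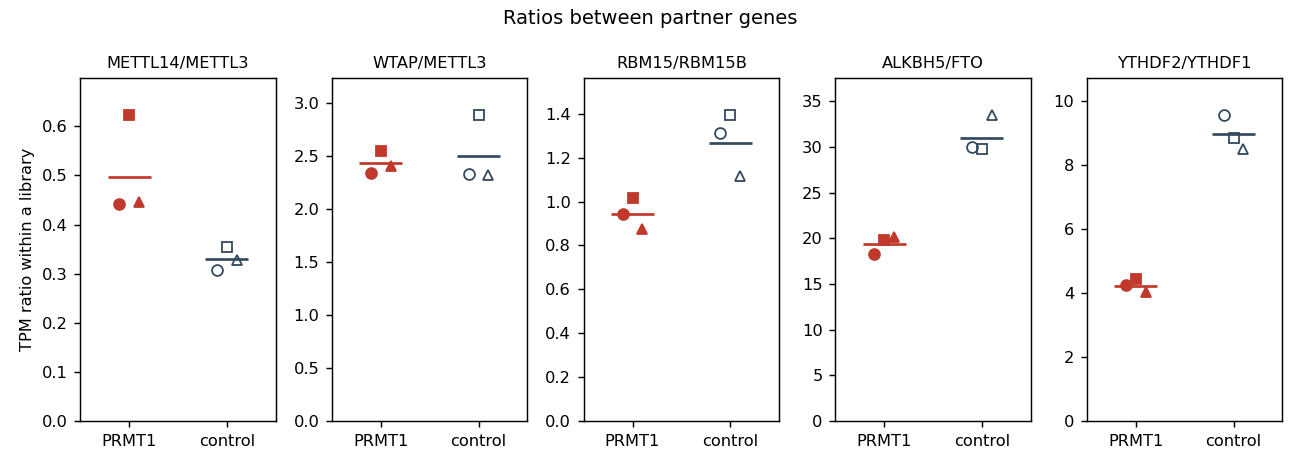
TPM ratio within each library (vertical axes, each from 0) for 5 pairs of genes, with the PRMT1 overexpression libraries left and the vector control libraries right. Symbols are single libraries and bars geometric means of 3. The groups do not overlap for METTL14/METTL3, RBM15/RBM15B, ALKBH5/FTO and YTHDF2/YTHDF1, and overlap for WTAP/METTL3.

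The 250 bases before the RefSeq start of METTL14, YTHDF1 and YTHDC1, which rose under every setting, and of ALKBH5, which fell under every setting, are shown to set the promoters of genes with opposite changes side by side. They are from RefSeq on GRCh38.p14 and run 5′ to 3′ along the gene's own strand (chr4:118685142-118685391, plus strand for METTL14, chr20:63216132-63216381, minus strand for YTHDF1, chr4:68350091-68350340, minus strand for YTHDC1 and chr17:18183578-18183827, plus strand for ALKBH5). Capitals mark matches on either strand to CCGGAAG (ETS factors), CCAAT (NF-Y), GCGCA and GCGC with any 1 base between them (NRF1) and TGACGTCA (the cAMP response element).
METTL14: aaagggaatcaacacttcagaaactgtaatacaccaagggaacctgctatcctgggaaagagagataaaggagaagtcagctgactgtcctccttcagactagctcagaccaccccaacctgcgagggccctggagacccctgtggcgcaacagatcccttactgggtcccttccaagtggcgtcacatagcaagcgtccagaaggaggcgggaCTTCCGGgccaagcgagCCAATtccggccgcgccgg
YTHDF1: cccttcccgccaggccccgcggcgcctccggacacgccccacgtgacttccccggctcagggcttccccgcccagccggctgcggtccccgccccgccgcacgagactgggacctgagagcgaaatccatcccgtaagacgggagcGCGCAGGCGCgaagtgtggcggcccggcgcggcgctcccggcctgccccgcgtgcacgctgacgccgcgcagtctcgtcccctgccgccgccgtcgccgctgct
YTHDC1: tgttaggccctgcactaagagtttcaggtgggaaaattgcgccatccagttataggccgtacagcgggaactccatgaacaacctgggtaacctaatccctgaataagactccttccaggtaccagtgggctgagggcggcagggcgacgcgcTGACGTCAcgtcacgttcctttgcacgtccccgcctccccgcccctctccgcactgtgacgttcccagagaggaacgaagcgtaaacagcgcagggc
ALKBH5: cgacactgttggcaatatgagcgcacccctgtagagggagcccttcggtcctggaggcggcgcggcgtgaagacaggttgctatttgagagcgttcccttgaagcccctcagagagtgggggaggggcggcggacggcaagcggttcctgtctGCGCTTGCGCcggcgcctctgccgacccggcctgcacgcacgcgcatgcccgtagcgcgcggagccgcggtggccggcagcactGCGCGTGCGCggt

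Windows were found for 9 of the 10 genes, all but VIRMA, and WTAP and YTHDF2 have more than 1. The METTL14 window holds 1 ETS match and 1 CCAAT match. YTHDF1 holds 1 and ALKBH5 2 matches to the NRF1 motif, which therefore occurs before a gene that rose and before one that fell. The YTHDC1 window holds 1 cAMP response element, which was added to the search after this window had been read. Over the 9 genes, 2 held the ETS motif, 4 CCAAT, 2 the NRF1 motif and 1 the cAMP response element in at least 1 window, where 8.52%, 32.0%, 5.07% and 1.65% of all 35116 windows did. The GC box GGGCGG, in lower case above, was found for 6 of the 9 genes and in 42.6% of all windows. Gene counts and window shares are unlike units, as WTAP and YTHDF2 had more than 1 window in which to match. A match describes letters in the window and not a bound site.

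The other genes of the pathway were 26 genes, all of them tested, of which 13 rose and 3 fell, beside 40.3% and 8.64% of all tested genes. After median-of-ratios scaling 7 were higher and 8 lower past the threshold, beside 22.5% and 25.5%. Their median log2 fold change was 0.30, the same as for all genes. The 3 remaining subunits of the writer complex all rose as deposited. CBLL1, the ubiquitin ligase subunit also called HAKAI, was at 17.5, 24.0 and 18.3 TPM in the PRMT1 libraries, against 9.38, 7.19 and 8.25 TPM in the controls (log2 fold change 1.17, limma adjusted p = 0.00078, and 0.81 after scaling, adjusted p = 0.00175). This places CBLL1 beside METTL14 and VIRMA among the writer genes whose call as higher did not depend on the scaling, though each rise was smaller after it. RBM15B was at 39.0, 41.0 and 41.7 TPM in the PRMT1 libraries, against 29.1, 29.6 and 24.1 TPM in the controls (log2 fold change 0.54, limma adjusted p = 0.00345), but did not pass after scaling (0.17, adjusted p = 0.124). ZC3H13, which holds the complex in the nucleus, rose by 0.40 (limma adjusted p = 0.0262). That call was lost after scaling (0.03, adjusted p = 0.846), under quantile normalization (0.13, adjusted p = 0.356), under GC correction (-0.04, adjusted p = 0.776), with no filter (adjusted p = 0.0578) and without PRMT1 library 1 or 2 or control library 1 (adjusted p = 0.0631, 0.0612 and 0.0919).

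The other RNA adenosine methyltransferases and the cofactor TRMT112 did not move together. ZCCHC4, the methyltransferase of 28S rRNA, rose by 0.87 (limma adjusted p = 0.004), with low levels of 4.90, 6.52 and 5.14 TPM in the PRMT1 libraries, against 3.12, 2.55 and 2.06 TPM in the controls. TRMT112, the cofactor that stabilises METTL5 and other methyltransferases, fell by 0.34 (adjusted p = 0.0128), a call lost under quantile normalization (-0.13, adjusted p = 0.323) and with PRMT1 taken out (-0.23, adjusted p = 0.0556). METTL5, the methyltransferase of 18S rRNA, stood at -0.08 (adjusted p = 0.589) and was lower past the threshold after scaling (-0.45, adjusted p = 0.0166). METTL16, which methylates U6 RNA and the MAT2A message, rose by 0.47 (adjusted p = 0.033). Its call was lost without any single library other than control library 1 (adjusted p = 0.0528 to 0.0982), with no filter (adjusted p = 0.0774), and after scaling, quantile normalization or GC correction (0.08 to 0.12, adjusted p = 0.405 to 0.6). PCIF1, the writer of the cap mark m6Am, rose by 0.24 (adjusted p = 0.0355), below the median of all genes, was at -0.14 after scaling (adjusted p = 0.215), and lost its call without any single library other than control library 1 (adjusted p = 0.059 to 0.114), under quantile normalization and GC correction (adjusted p = 0.171 and 0.474) and without the variance trend (adjusted p = 0.0735). METTL4, a methyltransferase of U2 RNA, was at 0.45 on the log2 scale (adjusted p = 0.0808) and passed without PRMT1 library 3 (0.64, adjusted p = 0.0202), under array weights (0.46, adjusted p = 0.00643) and when TPM were rescaled without PRMT1 (0.54, adjusted p = 0.0402).

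Of the remaining YTH readers, YTHDC2, which acts with a helicase domain of its own, rose by 0.72 (limma adjusted p = 0.011) and YTHDF3 did not pass. YTHDC2 passed after median-of-ratios scaling too (0.37, adjusted p = 0.0391), but not under quantile normalization or GC correction (adjusted p = 0.0863 and 0.0858). YTHDF3 was at 19.3, 26.3 and 18.7 TPM in the PRMT1 libraries, against 19.95, 21.2 and 11.4 TPM in the controls, with overlap and control library 3 lowest (log2 fold change 0.31, adjusted p = 0.306, and 0.04 without that library). Across the 3 YTHDF paralogs, YTHDF1 was thus the 1 that passed.

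Among 12 further proteins described as m6A readers or binders, 4 rose and 1 fell, beside 40.3% and 8.64% of all tested genes, and after scaling 2 were higher and 5 lower past the threshold, beside 22.5% and 25.5%. The 1 that fell was HNRNPA2B1, named after its values were seen, at 841, 908 and 817 TPM in the PRMT1 libraries, against 957, 956 and 969 TPM in the controls (log2 fold change -0.17, limma adjusted p = 0.0466). After scaling HNRNPA2B1 was at -0.55 (limma adjusted p = 0.0015). Its call as deposited was lost with no filter, no variance trend, the replicate block, quantile normalization or PRMT1 taken out. The call was also lost without PRMT1 library 1 or 3 or any single control library. The insulin-like growth factor 2 messenger binding protein genes were the ones with the largest rises. IGF2BP3 was at 12.5, 14.5 and 11.8 TPM in the PRMT1 libraries, against 5.57, 5.99 and 3.21 TPM in the controls (log2 fold change 1.26, limma adjusted p = 0.00191). IGF2BP1 was at 70.4, 83.6 and 74.8 TPM in the PRMT1 libraries, against 44.9, 47.2 and 36.4 TPM in the controls (0.82, adjusted p = 0.0012). Both passed after scaling (0.93 and 0.45, adjusted p = 0.00287 and 0.0031). IGF2BP2, named after its values were seen, rose by 0.40 as deposited (limma adjusted p = 0.0114) but did not pass after scaling (0.03, adjusted p = 0.725).

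Of the 3 genes of the methyl donor cycle, 2 rose and 1 fell. Of all tested genes 40.3% rose and 8.64% fell as deposited, and 22.5% were higher and 25.5% lower after scaling. MAT2A, which makes S-adenosylmethionine, rose by 0.72 (limma adjusted p = 0.00166), with 16.1, 17.1 and 15.2 TPM in the PRMT1 libraries, against 10.5, 9.35 and 8.37 TPM in the controls. MAT2B, the regulatory subunit that binds the MAT2A protein, was named after its values were seen and rose by 0.67 (adjusted p = 0.00272). MAT2A and MAT2B were also higher past the threshold after scaling (0.37 and 0.30, adjusted p = 0.01 and 0.0195). AHCY, which clears the product S-adenosylhomocysteine, was at 468, 459.9 and 457 TPM in the PRMT1 libraries, against 637, 665 and 583 TPM in the controls. It fell by 0.44 (adjusted p = 0.00144), and was at -0.82 after scaling (adjusted p = 0.000354).

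**Figure D5:**
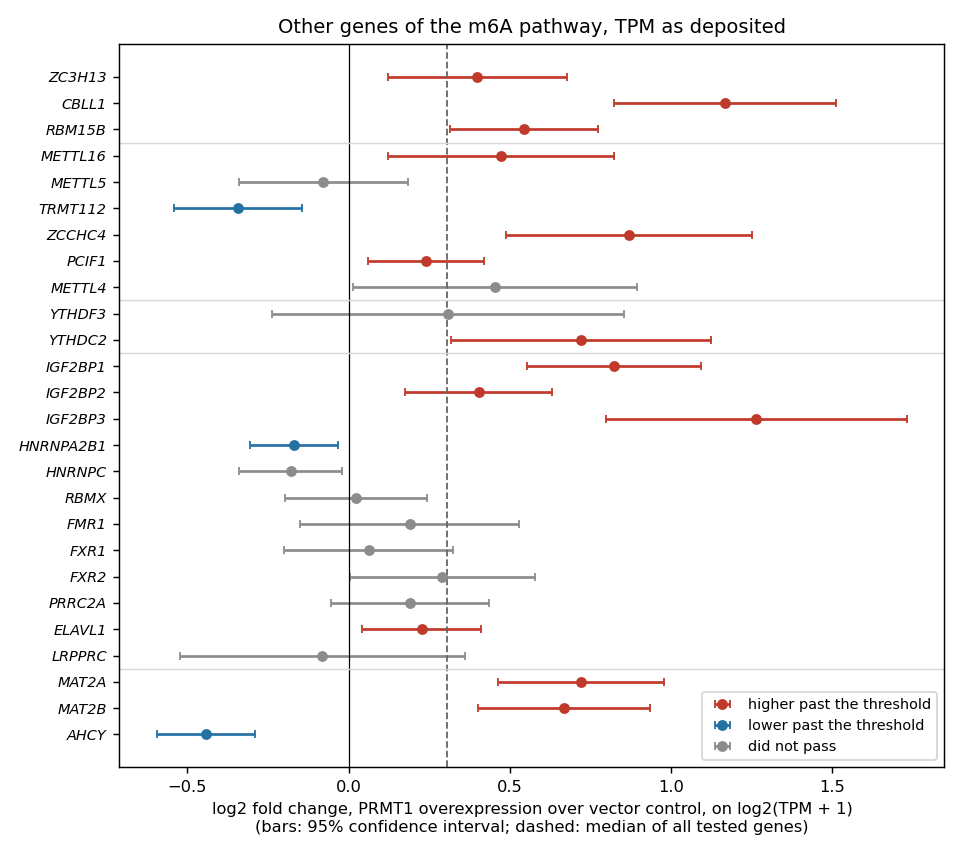
Log2 fold change of the 26 other pathway genes, PRMT1 overexpression over vector control, with 95% confidence intervals from limma (n = 3 each) on TPM as deposited. From top to bottom the blocks are writer complex subunits, other methyltransferases, YTH readers, other readers and methyl donor genes, and the dashed line is the median of all tested genes at 0.30. CBLL1 and IGF2BP3 have the largest rises, and TRMT112, HNRNPA2B1 and AHCY lie below 0 past the threshold.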

How the data were processed

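The deposited table gives TPM per Ensembl gene, as computed by the authors; since every column sums to 1000000, PRMT1 at a high level pushes the values of the other genes down. STAR 2.5.2b, Trimmomatic 0.36, Subread 1.5.2, featureCounts and the build GRCh38 are listed, with no role or order, per the submitters' processing notes. Not given in the sources used here are the annotation, the strand setting and the TPM formula. Groups and replicate numbers came from the labels. Coordinates, exonic lengths and transcript GC content came from GENCODE 29, which held 56898 of the identifiers. Multiplied by exonic length, 95.5 to 95.8% of values under 50 reads were whole multiples of 1 step per library within 0.05 of a read. These recovered reads (for WTAP not whole, so its length differed) give depth only: 3 reads on a gene of 1 kb are 0.459 to 0.526 TPM, counting error only. Libraries of a group differed beyond counting noise (chi-square per degree of freedom 2.70 to 23.2), so all 6 counted.

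Genes that reached 1 TPM in 3 or more libraries were tested, as log2(TPM + 1), by limma 3.58.1 under R 4.3.3 (lmFit, eBayes with a mean-variance trend, no covariate), adjusted by Benjamini-Hochberg over all of them. The 1 TPM added before the log understates the change of low genes. Ratios used exact permutation tests in SciPy 1.17.1. The fit was tested on simulated data in which few genes changed, as many up as down. Those data hold no shift of the bulk of genes, so they do not check the fit under one. The 10 genes, the 26 other pathway genes, the pairs and the settings were chosen with earlier results of these data known. All 10 are named, as are the other writer subunits, methyltransferases and YTH readers, and the 4 smallest p among the rest past the threshold. TOX4, SOD2, RBM15-AS1 and RPGRIP1L are named because they overlap a member, and HNRNPA2B1, IGF2BP2 and MAT2B were named after their values were seen. The alternatives were scaling by median of ratios, quantile normalization, the table rescaled without PRMT1, GC correction per library (loess, span 0.3, without 65 genes lacking a GC value), a pseudocount of 0.1 or 5 TPM, a filter at 5 TPM or none, array weights, a fit without variance trend, a block for the replicate number, leaving out each library, and leaving out control 3 and PRMT1 2 together, the libraries that stood apart within their groups. Applying them to the other pathway genes was decided after seeing the data.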

Additional observations from a re-analysis of the deposited data

How the results depend on the processing

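The 6 higher and 1 lower m6A genes were also 6 and 1 with each library left out in turn. In those fits 5082 to 5634 of all 15341 tested genes were higher and 935 to 1520 lower. Over all settings 4 to 8 m6A genes were higher and 1 lower. The 8 came with PRMT1 taken out and with array weights, where 7601 of 15483 and 7819 of 15341 genes were higher. The 4 came with median-of-ratios scaling and GC correction, where 3448 of 15341 and 3544 of 15276 genes were higher. The replicate block gave 6 and 1 as well, and among the other pathway genes 13 higher and 2 lower, beside 6275 and 1314 of all 15341. Same-numbered libraries did not deviate together (correlations of -0.03, 0.06 and 0.02). Among the other pathway genes, 7, 7 and 6 were higher after median-of-ratios scaling, quantile normalization and GC correction, and 8, 1 and 9 lower. In the same order, 3448 of 15341, 3103 of 15341 and 3544 of 15276 of all genes were higher, and 3913, 2976 and 3983 lower. With PRMT1 taken out 1 other pathway gene was lower, beside 880 of all 15483. With array weights or without control 3 and PRMT1 2 there were 5, beside 2838 and 2115 of all 15341. For RBM15 the log2 fold change was -0.24, -0.11, -0.14, -0.044 and -0.11 under median-of-ratios scaling, quantile normalization, GC correction, array weights and without control 3 and PRMT1 2. For FTO it was -0.070, -0.16 and -0.088 under the first 3 of these, for YTHDF2 -0.16 and -0.14 under median-of-ratios scaling and GC correction. For YTHDF3 it was -0.053, -0.039, -0.18, -0.012 and -0.11 in the order given for RBM15. GC correction gave -0.036 for ZC3H13 and -0.025 for METTL4, median-of-ratios scaling -0.14 for PCIF1, and PRMT1 taken out 0.030 for METTL5. Leaving out single libraries gave -0.052 (without control 3) to 0.25 for RBM15 and -0.16 to 0.0086 (without PRMT1 3) for METTL5. With a pseudocount of 5 TPM the log2 ratio difference was 0.23 for METTL14 to METTL3, -0.57 for ALKBH5 to FTO and -0.78 for YTHDF2 to YTHDF1, where a pseudocount shrinks ratios by construction. Quantile normalization gave 0.14 for WTAP to METTL3, -0.10 for ALKBH5 to FTO and -0.72 for YTHDF2 to YTHDF1, and GC correction -0.54 for ALKBH5 to FTO. Without control 3 and PRMT1 2 RBM15 to RBM15B was at -0.57. For the rest, the cause was not tested. The replicate block left the ratio differences as they were, by construction. METTL4 and ZCCHC4 have no value under the filter at 5 TPM.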

Other observations

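Within the PRMT1 overexpression group, library 2 held the highest value for 10 of the 10 m6A genes, and for 59.9% of all tested genes. Within the vector control group, library 3 held the lowest value for 6 of the 10, and for 55.6% of all tested genes. Without both libraries the log2 fold changes of YTHDF1, YTHDC1, METTL14 and VIRMA were 1.19, 1.08, 0.78 and 0.69, and that of ALKBH5 was -0.45, each past the threshold (limma adjusted p at most 0.00377).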
